A study of Drosophila melanogaster with 136 samples.

Results

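The 12 poly(A) RNA libraries described here come from wild-type Drosophila melanogaster embryos aged 8-12 h (6 libraries) and 12-16 h (6 libraries). They are all the wild-type embryo mRNA libraries of these ages in 3 deposited tables, out of 136 libraries in a study of target-directed microRNA degradation, in which a transcript that pairs extensively with a microRNA leads to decay of that microRNA in a process that needs the gene Dora. The wild-type embryos were the paired controls of 3 kinds of mutant flies, dora[A], dora[B] and CR43432, so they fall into 3 sets, called A, B and CR here. Each set holds 2 libraries per window, numbered as replicates in A and B and as fly lines 1 and 2 in CR. No allele, transgene or treatment is named for the wild-type embryos, and neither the number of embryos in a library nor their sex is given. Each library is whole embryos from a 4-h collection.

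In the fly, these hours run from the retraction of the germ band through dorsal closure to the time when organs take on their working form. Myoblasts fuse and then build sarcomeres, neuroblasts end their embryonic divisions while their daughters grow axons and synapses, and the epidermis and tracheae begin to lay down chitin and cuticle. A pulse of the steroid hormone ecdysone falls in mid-embryogenesis and is read out by a chain of nuclear receptors and other transcription factors.

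Counted reads in tested genes ranged from 10.67 M to 28.87 M per library. Levels are given as counts per M reads (CPM) of tested genes after TMM scaling, and compare libraries for 1 gene, not genes with each other. The first principal component of log2 CPM carried 76.8% of the variance and placed the 8-12 h libraries between -99.42 and -60.15 and the 12-16 h libraries between 74.49 and 97.97. The first 8-12 h library of set A lay nearest to the older window. The 10 most abundant genes took 5.56% to 6.32% of the reads at 8-12 h and 8.13% to 9.22% at 12-16 h.

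Most measured genes differed between the windows, and the large changes were mostly increases. Of 9802 genes with enough reads to test, 7262 (74.1%) passed an adjusted p of 0.05 in edgeR's quasi-likelihood test with the set as block, and these are named called. Of the called genes, 3731 were higher at 12-16 h (38.1% of those tested) and 3531 were lower (36%). At least 2-fold changes were called for 3979 genes (40.6%), 2671 upward (27.2%) and 1308 downward (13.3%). Changes of at least 8-fold were called for 1037 genes upward and 102 downward, and of at least 32-fold for 81 and 20. In 2865 genes (29.2%) all 6 older libraries lay above all 6 younger ones, and in 2367 (24.1%) below them. The median log2 fold change over all tested genes was -0.0032. Fitted alone, with 2 libraries per window, set A gave 4441 called genes, set B 5560 and set CR 5167. A gene was tested where 6 libraries reached 0.702 CPM, so a gene near 0 in 1 window was tested only if it was higher in the other. All 12 libraries reached that level in 8073 of the tested genes, of which 2739 rose (33.9%) and 3272 fell (40.5%), 1683 and 1055 of them at least 2-fold and 450 and 39 at least 8-fold. With so many genes called, a count of members is to be read against these shares. In bulk RNA, fewer cells of a type and less RNA per cell cannot be told apart.

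**Figure D1:**
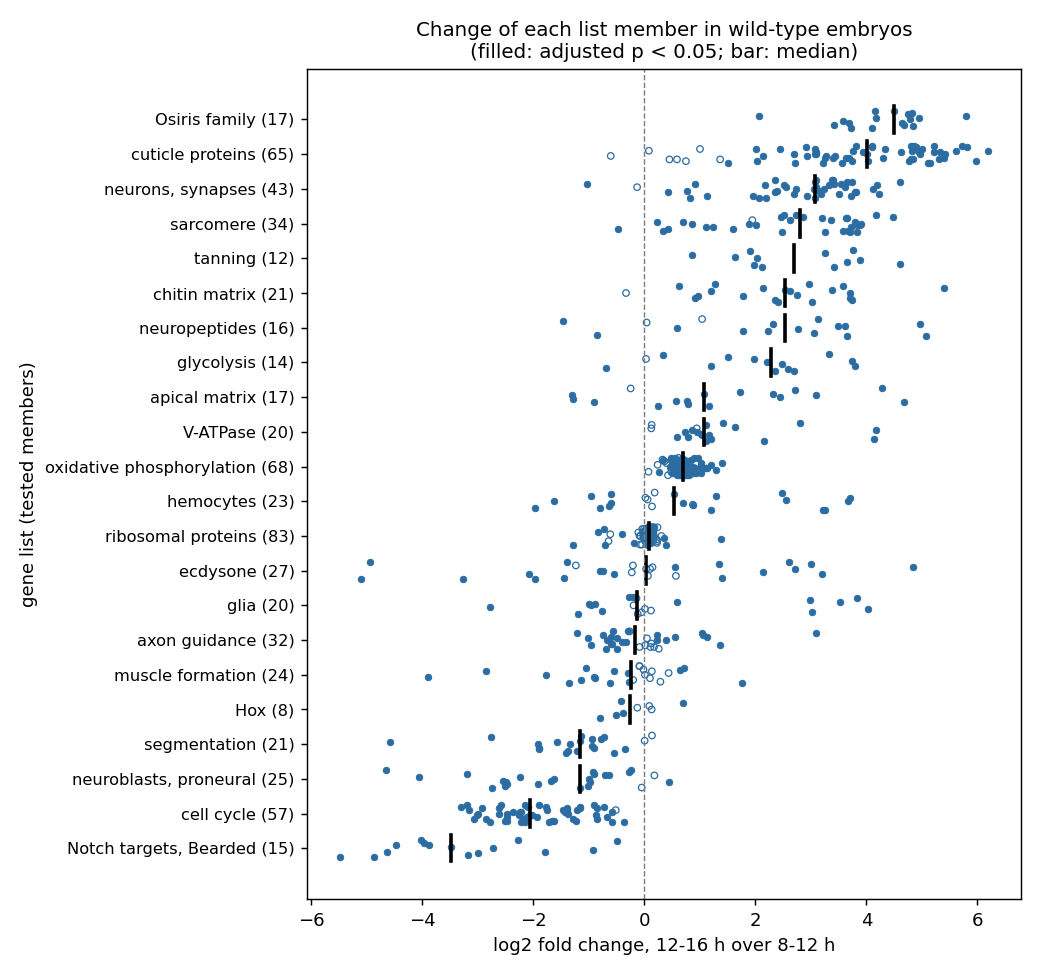
Log2 fold change from 8-12 to 12-16 h (horizontal axis, edgeR, 6 against 6 libraries) of every tested member of 22 gene lists (rows, ordered by median); each point is 1 gene, filled where its adjusted p is under 0.05 and open where it is not, and each bar is the list's median. The medians run from 4.50 for the Osiris family to -3.48 for Notch targets, while ribosomal protein genes sit at 0.075.

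Genes of the cuticle rose steeply. Of 127 cuticle protein genes in the tables, 65 had enough reads to test, and of these 58 rose, 0 fell and 7 were not called, with a median log2 fold change of 4.01. Only 13 of those tested reached the minimum level in every library of both windows, of which 10 rose. Another 43 reached it in every 12-16 h library but not in every 8-12 h one, so that their direction goes with being tested. The summed level of all members was 109 to 477 CPM in the younger libraries and 2772 to 6008 CPM in the older ones. Tb, a Tweedle protein of the cuticle (3R:26656440-26657531, dm6), ranged over 0 to 1.91 CPM (median 0.105) at 8-12 h and 13.9 to 72.9 CPM (median 30.4) at 12-16 h. All older libraries lay above all younger ones, 3 of which held no Tb read. The log2 fold change was 6.19 ± 0.79 (SE, edgeR, adjusted p 4.56e-05), and 7.41 without the first 8-12 h library of set A, which held the highest of the younger values.

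TwdlF, of the same protein family, measured 2.06 to 156 CPM (median 16.6) and then 1255 to 2161 CPM (median 1754). The windows did not overlap, and the first 8-12 h library of set A again held the highest young value. The log2 fold change was 5.80 ± 0.89 (adjusted p 0.000187), and 6.59 without that library. Cpr proteins carry a chitin-binding domain. Of these, Cpr65Eb measured 1.22 to 6.47 CPM (median 2.42) and then 56.9 to 113 CPM (median 79.2), a fold change without overlap of 4.97 ± 0.30 on the log2 scale (adjusted p 2.96e-08). Cpr66Cb rose by 5.73 ± 0.60 and Cpr64Ab by 5.97 ± 0.58 on that scale. At 8-12 h Cpr64Ab had no read in 2 libraries. Cpr66Cb lay there at 0.0825 to 1.33 CPM outside the first library of set A, which held 5.48 CPM. Neither gene reached the minimum level in every 8-12 h library, so that their direction goes with being tested. Leaving out single 8-12 h libraries moved Cpr66Cb to 6.51 (without the first of set A) and Cpr64Ab to 7.05 (without the first of set B).

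Enzymes and binding proteins of chitin moved with the cuticle proteins. Of 21 tested members, 20 rose and 1, rtv, was not called (median log2 fold change 2.54). Cda5, a chitin deacetylase-like protein, measured 58.5 to 99.0 CPM (median 65.2) at 8-12 h and 608 to 925 CPM (median 700.0) at 12-16 h. The chitinase-like protein Cht7 measured 40.6 to 80.5 CPM (median 62.7) and then 577 to 801 CPM (median 701). Neither gene overlapped between windows, with log2 fold changes of 3.38 ± 0.12 (adjusted p 1.03e-09) and 3.57 ± 0.14 (adjusted p 1.03e-09). The chitin-binding protein obst-A rose by 2.96 ± 0.13, and exp, needed for chitin in tracheal tubes, by 2.75 ± 0.12.

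All 17 tested Osiris genes rose, with a median log2 fold change of 4.50. Another 5 of the 22 in the tables had too few reads. Of those tested, 12 reached the minimum level in every library, and these 12 rose. Osiris proteins are insect-specific transmembrane proteins, most of them encoded in 1 gene cluster. Osi20 (3R:6340095-6341424) measured 13.2 to 52.7 CPM (median 28.6) in the younger and 607 to 947 CPM (median 812) in the older embryos. Every older library stood above every younger one (log2 fold change 4.76 ± 0.26, adjusted p 3.01e-08). Osi24 rose by 3.58 ± 0.22, Osi18 by 4.83 ± 0.37 and Osi2 by 4.84 ± 0.41. Summed over the family, the younger libraries ranged from 298 CPM in the first of set B to 2275 CPM in the first of set A, and the older ones from 20249 to 33382 CPM.

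Apical matrix genes split. Of 17 tested members, 13 rose, 3 fell (trn, ovo and grh) and sn was not called. The zona pellucida domain protein nyo measured 107 to 139 CPM (median 133) and then 369 to 480.1 CPM (median 412), without overlap (log2 fold change 1.72 ± 0.10, adjusted p 6.58e-09). f, which encodes the actin-bundling protein forked, rose by 3.10 ± 0.22, while trn, a leucine-rich repeat adhesion protein, fell by 1.30 (SE 0.092) on the log2 scale. All 12 tested genes of tanning rose. Of these, 8 reached the minimum level in every library. The other 4 reached it in every 12-16 h library but not in every 8-12 h one, so that their direction goes with being tested. amd, an enzyme needed for the cuticle, measured 9.84 to 24.4 CPM (median 14.6) and then 152 to 241 CPM (median 202). Its older libraries were all above the younger (log2 fold change 3.65 ± 0.17, adjusted p 3.39e-09). Outside that list, the yellow family gene yellow-e3 measured 44.8 to 84.3 CPM (median 71.4) and then 0.128 to 3.94 CPM (median 2.39). It fell without overlap, by 5.23 (SE 0.57) on the log2 scale (adjusted p 1.39e-05).

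**Figure D2:**
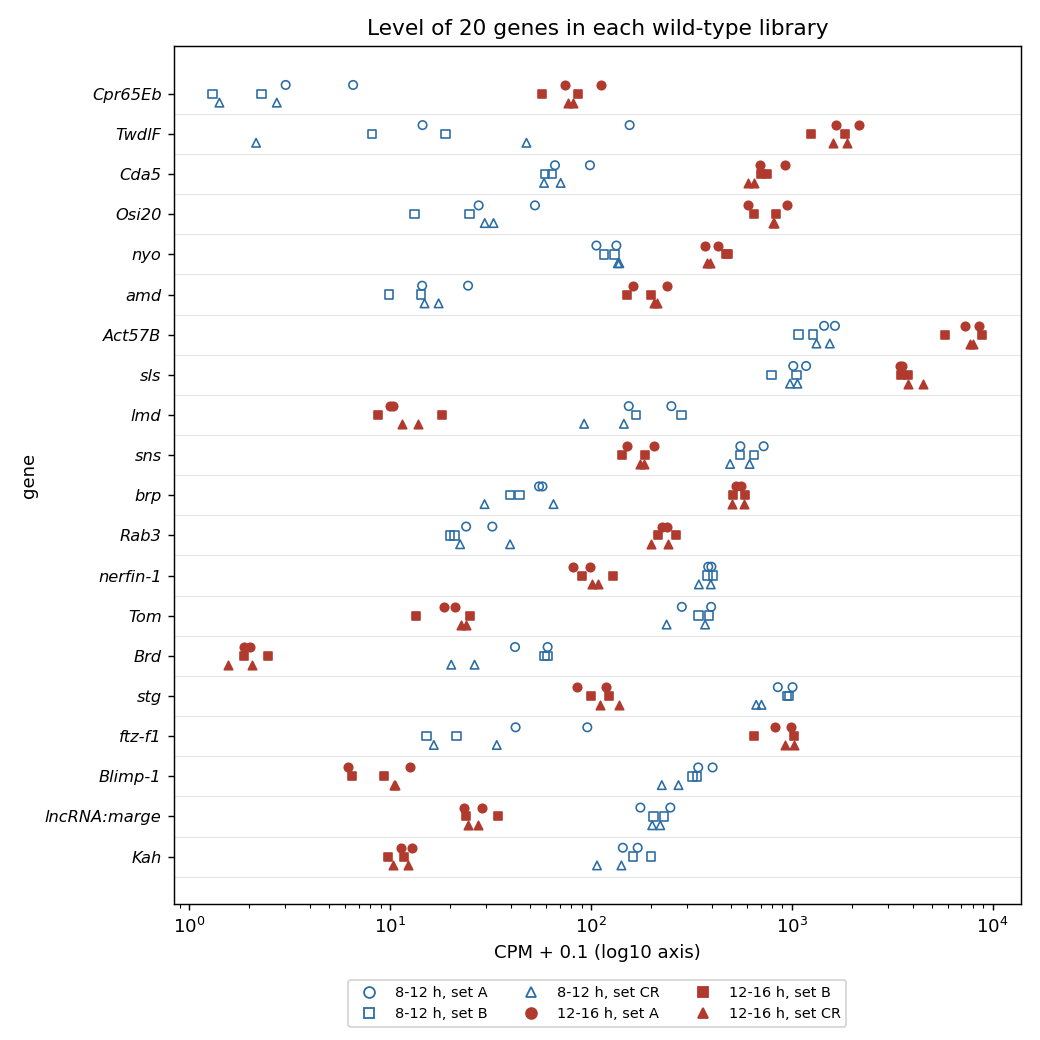
Level of 20 genes (rows) in each of the 12 libraries, as CPM plus 0.1 on a log10 axis; open symbols are 8-12 h and filled symbols 12-16 h, with circles for set A, squares for set B and triangles for set CR. In each of the 20 genes the 6 filled symbols lie wholly to 1 side of the 6 open ones.

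Sarcomere genes rose, while genes of muscle formation moved both ways. Among 34 tested genes of the sarcomere and contraction, 32 rose, cpa fell and Act79B was not called (median log2 fold change 2.80). Of the 31 at the minimum level in every library 30 rose (96.8%), against 33.9% of all such genes. Among 24 tested genes of muscle determination and myoblast fusion, 12 fell, 3 rose (H15, ths and slou) and 9 were not called (median -0.24). All 24 reached the minimum level in every library. Their shares were 50% lower and 12.5% higher, against 40.5% and 33.9% of all such genes. Act57B, a muscle actin, measured 1083 to 1642 CPM (median 1389) at 8-12 h and 5786 to 8859 CPM (median 7841) at 12-16 h. The titin-like protein sls measured 792 to 1179.7 CPM (median 1037) and then 3442 to 4528 CPM (median 3669). Both rose without overlap, by 2.48 ± 0.12 (adjusted p 2.65e-09) and 1.89 ± 0.10 (adjusted p 5.53e-09) on the log2 scale. The calcium channel subunit Ca-alpha1D rose by 1.60 ± 0.086.

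The fusion genes named next are among the 12 members of their list that fell. Of these, lmd, a transcription factor of fusion-competent myoblasts, measured 92.6 to 283 CPM (median 161) and then 8.61 to 18.0 CPM (median 10.9). Its older values were all below its younger ones (log2 fold change -3.89 ± 0.28, adjusted p 2.23e-07). The fusion receptor sns measured 494 to 725 CPM (median 586) and then 143 to 205 CPM (median 180.4), again without overlap (-1.78 ± 0.12, adjusted p 2.03e-08). mbc, which acts with Rac in fusion, fell by 1.35 (SE 0.10) and the adhesion protein gene rst by 1.14 (SE 0.086).

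In the nervous system, precursor genes fell and genes of mature neurons rose. Of 25 neuroblast and proneural genes 22 fell, Sox21b rose, and vnd and svp were not called (median log2 fold change -1.17). Among the 21 at the minimum level in every library 18 fell (85.7%), against 40.5% of all such genes. The other 4 reached it in every 8-12 h library but not in every 12-16 h one, so that their direction goes with being tested. Of 43 tested genes of neurons and synapses 41 rose, elav fell and Csp was not called (median 3.08). Among the 41 at the minimum level in every library 39 rose (95.1%), against 33.9% of all such genes. brp, a scaffold of the presynaptic active zone, measured 29.5 to 65.2 CPM (median 49.7) and then 504 to 583 CPM (median 545). The vesicle GTPase Rab3 measured 19.9 to 39.6 CPM (median 23.1) and then 199.6 to 264 CPM (median 233). The older values of both lay clear of the younger ones, with log2 fold changes of 3.50 ± 0.17 (adjusted p 3.93e-09) and 3.15 ± 0.17 (adjusted p 6.36e-09). The microtubule-associated protein futsch rose by 2.06 ± 0.12. elav, an RNA-binding protein of neurons, measured 1227 to 1955 CPM (median 1647) and then 549 to 1006 CPM (median 805), a fall of 1.03 (SE 0.13) on the log2 scale (adjusted p 9.64e-06). In the second 12-16 h library of set A the summed neuronal list reached 8471 CPM, against 10191 to 10694 CPM in the other 5 libraries, and without it 41 members rose and 1 fell.

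Among the precursor genes, nerfin-1, a zinc finger factor of young neurons, measured 345 to 407 CPM (median 390.1) in the younger and 81.7 to 129 CPM (median 100.3) in the older libraries. mira, the adaptor that sorts fate determinants in dividing neuroblasts, measured 182 to 388 CPM (median 299) and then 45.8 to 78.2 CPM (median 60.9). Neither gene overlapped between windows. They fell by 1.93 (SE 0.10) (adjusted p 5.01e-09) and 2.25 (SE 0.17) (adjusted p 1.4e-07) on the log2 scale, the neuroblast factor dpn by 2.51 (SE 0.17) and hb, an early temporal factor of neuroblasts, by 2.54 (SE 0.19). The summed level of the 25 genes was 3689 to 5453 CPM at 8-12 h and 1980.5 to 2566 CPM at 12-16 h.

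Of 16 tested neuropeptide genes 12 rose and 2 fell, out of 39 in the tables. Of those tested, 10 reached the minimum level in every 12-16 h library but not in every 8-12 h one, AstC among them, so their direction goes with being tested. Of the 5 that reached it in every library 3 rose and 1 fell. AstC, which encodes an allatostatin, measured 0.0405 to 0.396 CPM (median 0.120) and then 2.91 to 7.31 CPM (median 4.65), low in both windows (log2 fold change 4.96 ± 0.51, adjusted p 1.18e-06). Axon guidance genes moved both ways, with 9 higher (28.1%), 15 lower (46.9%) and 8 not called of 32. Of all tested genes 38.1% were higher and 36% lower. The list's median log2 fold change was -0.18, and the members named next are among the 9 that rose. The guidance receptor robo3 measured 15.8 to 51.5 CPM (median 23.7) and then 210.4 to 249 CPM (median 225), without overlap (3.09 ± 0.24, adjusted p 3.08e-07). The semaphorin Sema2b rose by 1.36 ± 0.11 and the adhesion protein caps by 1.06 ± 0.083.

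Of 23 sense organ genes 8 rose (34.8%) and 8 fell (34.8%), shares near those of all tested genes, 38.1% and 36%. Among the 16 of them at the minimum level in every library 7 rose (43.8%) and 4 fell (25%), against 33.9% and 40.5% of all such genes. The genes that rose included the mechanosensory channel nompC (3.38 ± 0.24) and nompA, an extracellular protein of sensory endings (3.66 ± 0.35). The genes that fell included the proneural genes ato and cato. Both lay under the minimum level in every 12-16 h library, so that their direction goes with being tested. Of 20 glial genes 6 rose (30%) and 8 fell (40%). Among the 17 of them at the minimum level in every library 3 rose (17.6%) and 8 fell (47.1%), against 33.9% and 40.5% of all such genes. gcm, the switch gene of glial fate, measured 50.3 to 91.7 CPM (median 83.3) and then 6.67 to 16.7 CPM (median 11.5). alrm, a marker of astrocyte-like glia, measured 5.02 to 11.4 CPM (median 7.21) and then 49.1 to 65.8 CPM (median 62.6). The 2 genes moved in opposite directions without overlap, gcm falling by 2.79 (SE 0.22) (adjusted p 1.47e-07) and alrm rising by 3.02 ± 0.16 (adjusted p 5.01e-09) on the log2 scale.

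Regulators of earlier patterning fell. All 15 Enhancer of split and Bearded family genes, which respond to Notch or modulate it in proneural clusters, were lower at 12-16 h (median log2 fold change -3.48), where 36% of all genes were. Of these, 13 reached the minimum level in every library, and these 13 fell, against 40.5% of all such genes. The other 2, E(spl)mdelta-HLH and BobA, reached it in every 8-12 h library but not in every 12-16 h one. Their direction goes with being tested. Tom, a Bearded family protein that restrains Notch ligand activity, measured 239 to 397 CPM (median 357) in the younger and 13.4 to 25.1 CPM (median 21.7) in the older embryos. Its relative Brd measured 20.1 to 60.9 CPM (median 50.3) and then 1.47 to 2.36 CPM (median 1.85). There was no overlap in either (-4.03 ± 0.19, adjusted p 3.93e-09, and -4.48 ± 0.21, adjusted p 2.65e-09). The repressor E(spl)mdelta-HLH fell by 4.87 (SE 0.37) and E(spl)mgamma-HLH by 3.89 (SE 0.20). These short genes have close relatives, as do the Twdl, Cpr and Osiris genes, and how reads were shared among relatives is not given.

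Of 21 segmentation genes 19 fell, none rose, and eve and drm were not called (median -1.15). Among the 20 at the minimum level in every library 18 fell (90%), against 40.5% of all such genes. ptc, the Hedgehog receptor, measured 333 to 551 CPM (median 477) and then 103.6 to 150.3 CPM (median 124), without overlap (-1.90 ± 0.12, adjusted p 1.53e-08). The Hedgehog effector ci fell by 1.42 (SE 0.077), the homeodomain factor en by 1.89 (SE 0.15) and the segment polarity gene gsb by 2.76 (SE 0.22). Hox genes, which set segment identity, moved less. Of 8 members 4 fell, lab rose, and Antp, Ubx and pb were not called. Abd-B, which sets the identity of the posterior abdomen, measured 167 to 273 CPM (median 210.4) and then 106 to 161 CPM (median 111), a log2 fold change without overlap of -0.80 ± 0.11 (adjusted p 1.95e-05).

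Of 57 tested genes of the cell cycle and DNA replication 56 fell and twe was not called (median log2 fold change -2.06). Among the 54 at the minimum level in every library 53 fell (98.1%), against 40.5% of all such genes. The other 3 reached it in every 8-12 h library but not in every 12-16 h one, so that their direction goes with being tested. stg, the Cdc25 phosphatase that starts embryonic mitoses, measured 666 to 1010.0 CPM (median 900.1) at 8-12 h and 84.9 to 138 CPM (median 115) at 12-16 h. Its target kinase gene Cdk1 measured 57.0 to 82.4 CPM (median 61.5) and then 8.31 to 12.9 CPM (median 10.8). No library of 1 window reached the other, and the log2 fold changes were -2.92 ± 0.14 (adjusted p 3.34e-09) and -2.61 ± 0.14 (adjusted p 4.3e-09). The list also holds dap, a Cdk inhibitor, and fzr, an activator of cyclin destruction, both of which promote exit from the cycle. They fell too, by 2.25 (SE 0.13) and 2.15 (SE 0.12). Members named in this account because they went against their list were chosen after their values were seen.

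The ecdysone list moved both ways, at shares near those of all genes. Of 27 tested members 9 rose (33.3%), 10 fell (37%) and 8 were not called, among them the receptor gene EcR, with 207 to 331 CPM (median 260.1) and 211 to 304 CPM (median 277). Among the 23 members at the minimum level in every library 9 rose (39.1%) and 7 fell (30.4%), against 33.9% and 40.5% of all such genes. ftz-f1, a nuclear receptor that acts after the hormone pulse has declined, measured 15.2 to 96.1 CPM (median 27.7) at 8-12 h and 653 to 1028 CPM (median 961) at 12-16 h. Blimp-1, a repressor of ftz-f1 in fly metamorphosis, measured 226 to 404 CPM (median 329.6) and then 6.09 to 12.6 CPM (median 9.87). The 2 genes moved in opposite directions and neither overlapped between windows. ftz-f1 (3L:18750607-18801309) rose by 4.84 ± 0.41 (adjusted p 2.19e-06) and Blimp-1 (3L:5630983-5652094) fell by 5.10 (SE 0.21) (adjusted p 2.65e-09) on the log2 scale.

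Genes that make or break down hormones also changed. shd, the enzyme that turns ecdysone into its active hydroxylated form, measured 9.90 to 18.4 CPM (median 13.1) and then 0 to 0.876 CPM (median 0.381). Cyp18a1, which inactivates ecdysteroids, measured 4.40 to 17.3 CPM (median 11.5) and then 69.4 to 118 CPM (median 106). Their windows did not overlap, with log2 fold changes of -4.95 ± 0.57 (adjusted p 4.89e-06) and 3.20 ± 0.27 (adjusted p 6.82e-07). jhamt, a methyltransferase of juvenile hormone synthesis, measured 9.25 to 30.2 CPM (median 17.2) and then 0 to 0.949 CPM (median 0.164). Its log2 fold change was -5.80 ± 0.56 (adjusted p 1.3e-06), and -6.48 without the first 12-16 h library of set B. Neither shd nor jhamt reached the filter's minimum level in every 12-16 h library, so that their direction goes with being tested. The list holds 5 genes named for their induction by the hormone in imaginal discs. Of these ImpE1 rose by 2.60 ± 0.22, ImpE2 by 2.72 ± 0.45 and ImpL1 by 3.00 ± 0.42, while ImpL2, a secreted insulin-binding protein, fell by 0.79 (SE 0.10) without overlap (adjusted p 7.44e-06) and ImpE3 was not called (0.57 ± 0.42, adjusted p 0.236). br, a zinc finger factor gene, rose by 2.14 ± 0.17. The nuclear receptor gene Hr39 fell by 1.97 (SE 0.11) and the transporter gene E23 by 1.39 (SE 0.12).

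CG34224 (2R:11237172-11237644), a gene with no role given here, had the largest called decrease among genes of at least 10 CPM without overlap. It measured 27.7 to 39.2 CPM (median 35.2) and then 0 to 0.470 CPM (median 0.195). Its log2 fold change was -7.40 ± 0.32 (adjusted p 1.84e-09). Every 12-16 h library lay under the 0.702 CPM minimum of the filter, so that its direction goes with being tested. tld, a metalloprotease that frees BMP ligands, fell by 4.94 (SE 0.63) (adjusted p 4.69e-05). sisA, an X-linked gene of sex determination, fell by 5.84 (SE 0.72) (adjusted p 1.1e-05). Without the second 12-16 h library of set CR, which held 1.17 CPM against at most 0.137 CPM in the other older ones, its log2 fold change was -7.67. The direction of sisA, too, goes with being tested.

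Metabolic enzymes rose in number. Of 14 tested genes around glycolysis 12 rose, Gpdh1 fell and the regulator ERR was not called (median log2 fold change 2.28). Ald1, the aldolase, measured 179 to 344 CPM (median 224) and then 1095 to 1268 CPM (median 1197). Ldh, which makes lactate, measured 41.5 to 96.8 CPM (median 51.6) and then 221 to 341 CPM (median 252). Both were separated between windows (2.34 ± 0.14, adjusted p 1.08e-08, and 2.21 ± 0.13, adjusted p 1.22e-08). Pfk rose by 2.59 ± 0.18, Gapdh1 by 3.32 ± 0.20, Gapdh2 by 3.73 ± 0.28 and Tpi by 3.80 ± 0.36. The hexokinase gene Hex-A rose by 0.34 ± 0.11 (adjusted p 0.0149, and 0.0609 without the first 8-12 h library of set CR). Gpdh1, which makes glycerol phosphate, fell by 0.69 (SE 0.14) (adjusted p 0.000493). ERR, a nuclear receptor that turns on glycolytic genes in the fly, measured 28.6 to 42.7 CPM (median 36.0) and 29.8 to 45.8 CPM (median 36.1).

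Subunits of oxidative phosphorylation rose by less, 59 of 68 tested, with 0 lower (median 0.70). Of all tested genes 38.1% were higher and 36% lower. In 37 of the 68 all older libraries lay above all younger ones. Fitted alone, set CR called 29 members higher, set A 39 and set B 49. SdhA of complex II rose by 1.11 ± 0.089 (adjusted p 1.15e-07) and blw, the ATP synthase alpha subunit, by 1.12 ± 0.10 (adjusted p 3.82e-07). Of 20 tested V-ATPase subunits, which acidify organelles, 17 rose and 0 fell (median 1.07). Vha68-2 measured 106 to 149 CPM (median 122) and then 479.7 to 657 CPM (median 541), without overlap (2.16 ± 0.11, adjusted p 3.37e-09). Of 83 cytoplasmic ribosomal protein genes 73 were not called, 4 rose and 6 fell (median 0.075).

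Markers of other tissues changed in both directions within most lists, as all tested genes did (38.1% higher and 36% lower). Hemocyte genes gave 11 higher, 7 lower and 5 not called of 23. The collagen IV chain gene Col4a1 measured 231 to 422 CPM (median 373) and then 2942 to 4134 CPM (median 3158), without overlap. It rose by 3.21 ± 0.13 (adjusted p 1.03e-09) and the other chain, vkg, by 3.26 ± 0.13. NimC4, a receptor for engulfing dying cells, fell by 1.97 (SE 0.10). Of 14 apoptosis genes 8 fell and 3 rose. The death gene hid measured 158 to 264 CPM (median 215) and then 39.8 to 87.7 CPM (median 61.3), without overlap (-1.75 ± 0.16, adjusted p 4.64e-07).

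Tracheal genes gave 9 higher (45%) and 10 lower (50%) of 20, with the scavenger receptor emp up by 2.68 ± 0.11 and the transcription factor rib down by 2.49 (SE 0.12). Of 17 renal genes 12 rose (70.6%), among them the water channel Drip (3.46 ± 0.24), and 4 fell (23.5%). Of 11 salivary gland genes 7 fell (63.6%) and ps rose. Of 27 septate junction genes 14 fell (51.9%) and 7 rose (25.9%), and of 22 dorsal closure genes 11 fell (50%) and 7 rose (31.8%). All tested tracheal, salivary gland, septate junction and dorsal closure genes reached the minimum level in every library. Of all genes at that level 40.5% fell and 33.9% rose. Midgut genes gave 11 higher and 4 lower of 17 tested, out of 37 in the tables, and 5 and 3 of the 8 that reached the minimum level in every library. Fat body genes gave 7 (58.3%) and 3 (25%) of 12, and germ line genes 6 (35.3%) and 4 (23.5%) of 17. Heat shock genes gave 2 and 1 of 11, and genes of the first hours of development 2 and 5 of 10. Of all tested genes 38.1% were higher and 36% lower. Egg shell and yolk genes of the adult ovary summed to 1.48 to 6.999 CPM at 8-12 h and 2.17 to 10.97 CPM at 12-16 h, with 7 of 19 at 0 in all libraries.

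The transcripts that the study treats as triggers of microRNA decay were measured in the same libraries. lncRNA:marge, the product of CR43432 (3L:14976626-14977631), measured 177 to 249 CPM (median 214) at 8-12 h and 23.2 to 34.5 CPM (median 25.8) at 12-16 h. Kah, a zinc finger factor of the Snail class, measured 107 to 199 CPM (median 153) and then 9.68 to 12.8 CPM (median 11.4). Both fell without overlap, by 3.00 (SE 0.12) (adjusted p 1.03e-09) and 3.76 (SE 0.14) (adjusted p 1.03e-09) on the log2 scale. hry fell by 0.95 (SE 0.15), zfh1 by 0.32 (SE 0.091) and Dora itself by 0.60 (SE 0.092), while wgn rose by 0.57 ± 0.13. The windows of zfh1 and wgn overlapped. The second 12-16 h library of set A held 125 CPM of wgn, against 67.2 to 83.7 CPM in the other older ones. Fitted alone, sets B and CR called 0 of the study's transcripts higher, and set A 1. AGO1 was not called (-0.16 ± 0.12, adjusted p 0.215). Without the first 8-12 h library of set CR it was (-0.26, adjusted p 0.0336).

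**Figure D3:**
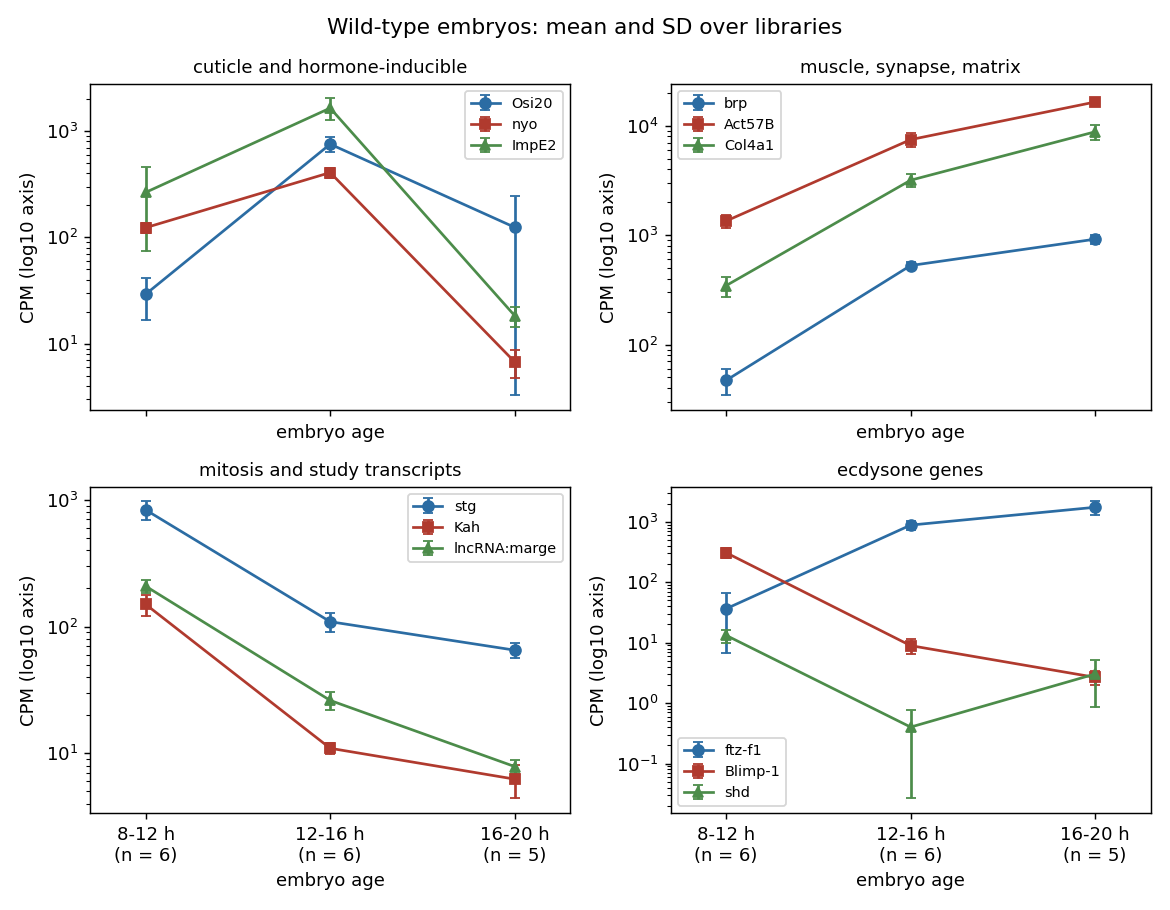
Mean CPM (log10 axis) of 12 genes in wild-type embryos at 8-12 h (n = 6), 12-16 h (n = 6) and 16-20 h (n = 5), with SD bars, in 4 panels, scaled over all wild-type embryo libraries. Osi20, nyo and ImpE2 are highest at 12-16 h, brp, Act57B and Col4a1 rose in both steps, stg, Kah, lncRNA:marge and Blimp-1 fell in both, shd is lowest at 12-16 h, and ftz-f1 has a second step of 0.94 (log2) that did not pass the test.

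The step was set beside the next one, from 12-16 to 16-20 h, in 1 fit of 17 libraries, and the values of both steps are taken from that fit. The 2 steps share the 12-16 h libraries, so values are given side by side and only their difference was tested. In the next step 3036 of 10698 genes were higher (28.4%) and 3140 lower (29.4%). With RLE scaling these counts were 3495 and 2379, and with DESeq2 3587 and 2482, and under either the median log2 step of all genes moved from -0.0718 to 0.0791. The difference between the steps was called for 4591 genes, negative in 2789 (26.1%) and positive in 1802 (16.8%). The smallest p-values among genes of at least 10 CPM belonged to increases followed by decreases. nyo changed by 1.70 ± 0.14 and then -5.93 ± 0.19 on the log2 scale (SE, edgeR adjusted p of the difference 4.29e-12). dy, another zona pellucida domain protein, changed by 1.93 ± 0.18 and then -5.62 ± 0.24, and CG14960, with no role given here, by 2.53 ± 0.20 and then -6.70 ± 0.27. Of 17 Osiris genes 17 rose in the first step and 15 fell in the second (medians 4.46 and -4.54), with a called negative difference in 17. ImpE2 changed by 2.65 ± 0.40 and then -6.49 ± 0.51 (adjusted p of the difference 1.75e-07).

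Other lists are counted over the members that had enough reads without the 16-20 h libraries. Sarcomere genes had 33 and then 27 of 34 higher (medians 2.76 and 1.06), and synaptic genes 41 and then 36 of 43 (medians 3.04 and 0.92). brp changed by 3.47 ± 0.16 and then 0.77 ± 0.15 (adjusted p of the difference 2.69e-07). Cuticle protein genes had 58 and then 48 of 65 higher (medians 3.81 and 2.83), with 4 lower in the next step. Cell cycle genes had 56 and then 39 of 57 lower (medians -2.12 and -0.80). shd changed by -5.02 ± 0.59 and then 2.79 ± 0.59 (adjusted p of the difference 2.59e-05), and Hr39 by -1.99 ± 0.12 and then 1.39 ± 0.12 (4.18e-09).

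The step differed between the 3 sets in few genes. An interaction test in edgeR called 4 genes (0.0408% of 9802), with 536 at an unadjusted p of 0.05, and DESeq2 called 75. The 4 were CG18765, Cyp4e1, Jabba and Cyp6d2, and none was called for the step itself. CG18765, with no role given here, was at 39.3 to 52.5 CPM at 8-12 h in sets A and B and at 2.50 and 2.48 in set CR, while its 12-16 h libraries lay between 5.33 to 13.1 CPM. Jabba, a lipid droplet protein, was likewise low in set CR at 8-12 h, with 0.834 and 1.90 CPM against 32.5 to 49.5 in sets A and B. The cytochrome P450 gene Cyp4e1 held 245 and 167 CPM in set B at 8-12 h and 1.26 to 10.2 CPM in the other sets. Cyp6d2, also a P450 gene, held 34.4 and 38.6 CPM there and 0.140 to 1.32 CPM in the others. In each of these genes 1 set stood apart from the other 2 at 8-12 h. What differs between the sets beyond the mutant they were paired with is not given.

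The same step was measured in 12 libraries that the wild-type step did not use, from dora[A], dora[B] and CR43432 mutant embryos in the same tables, 2 per window each. Of 10419 genes tested there, 3722 rose (35.7%) and 2939 fell (28.2%). Without a filter on low counts 2865 rose and 4554 fell, and the median log2 step of all genes moved from 0.0387 to -0.2108. The balance also turned when 1 of 3 wild-type libraries of set CR was left out of the shared fit, to 3281 up and 3866 down without the first at 8-12 h, 3271 and 3844 without the second at 8-12 h, and 3245 and 3849 without the second at 12-16 h, with medians of -0.1279, -0.1278 and -0.1296. Of the 2671 genes at least 2-fold higher in wild type, 2530 (94.7%) were called higher in mutants, and of the 1308 lower ones 1151 (88%) were called lower. Of the 2692 genes at least 2-fold higher in mutants 89.5% were called higher in wild type, and of the 789 lower ones 89.2% were called lower. 1 gene was called in opposite directions.

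The test of the mutant step minus the wild-type step called 0 genes in edgeR, with 698 at an unadjusted p of 0.05 (351 positive and 347 negative), and 1 gene in DESeq2. The SD of the log2 step over genes was 1.46 in mutants and 1.73 in wild type. Setting the wild-type values of the 12-library fit beside those of mutants, the median of the Osiris genes was 2.99 in mutants and 4.50 in wild type, that of cell cycle genes -1.34 and -2.06, and that of synaptic genes 2.69 and 3.08. ftz-f1 changed by 2.80 in mutants and 4.84 in wild type, and Blimp-1 by -3.88 and -5.10. Of the genes with the smallest p-values for the difference, the maltase gene Mal-B1 changed by 2.56 in mutants and 5.08 in wild type (adjusted p of the difference 0.202), and the glutamine synthetase gene Gs2 by -0.23 and -0.89 (0.698).

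**Figure D4:**
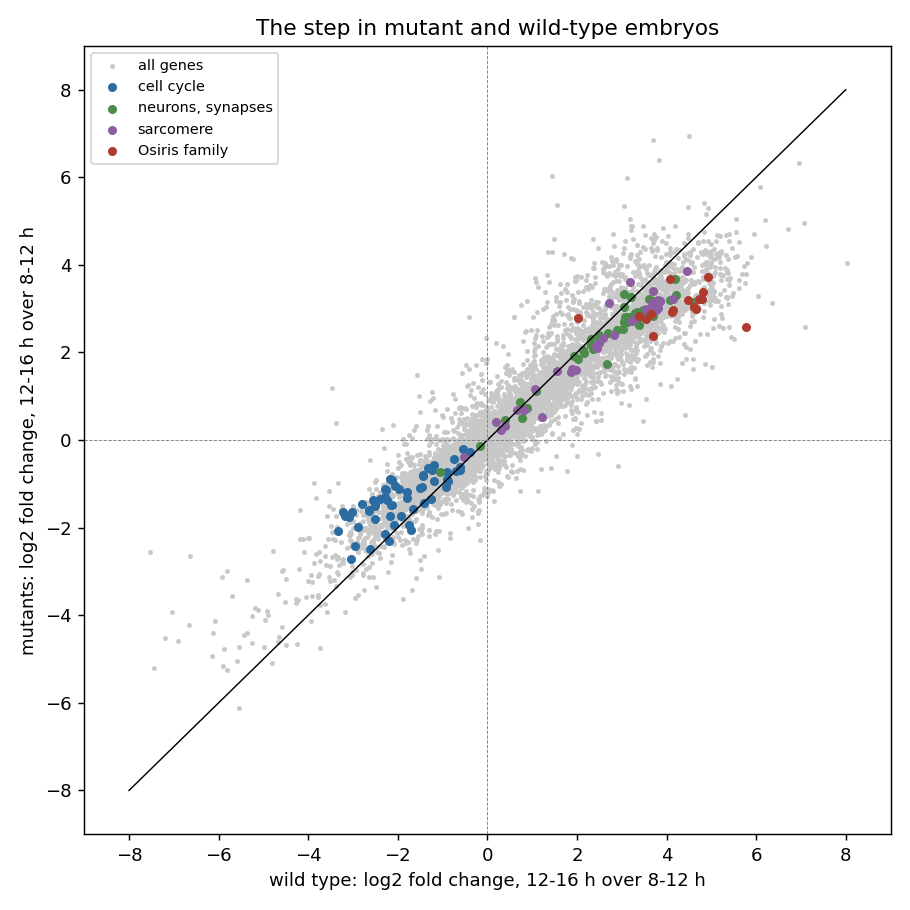
Log2 fold change from 8-12 to 12-16 h in mutant (vertical axis) against wild-type embryos (horizontal axis) for 10419 genes of 1 fit, with 6 libraries per genotype and window; colours mark Osiris, cell cycle, synaptic and sarcomere genes, and the line marks equal steps. The SD over genes is 1.46 on the vertical and 1.73 on the horizontal axis, and 0 genes passed the test of the difference.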

How the data were processed

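Poly(A) RNA of whole embryos was extracted with TRI Reagent and sequenced as single reads from a directional kit, per the labels' protocols. The authors deposited raw read counts per gene in 1 table for each of the 3 kinds of fly. Reads were handled with STAR 2.4 and HTSeq on dm6, per the submitters' processing notes; for the HTSeq version, the annotation release and the strand setting nothing is given in the sources used here, so reads of overlapping or antisense genes may not be separable. Rows that name no gene took 6.02% to 16.61% of the reads in the 12 libraries and stayed out of library sizes and tests, and 0 columns were left unmapped. Symbols and positions came from RefSeq (Release 6, the build dm6) and matched 17226 of 17477 gene IDs; genes without a match are not analysed here.

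From the counts, edgeR 4.0.16 (R 4.3.3, limma 3.58.1) was run with TMM scaling, filterByExpr on the window, robust quasi-likelihood fits and the table as block, with Benjamini-Hochberg adjustment over all genes tested. The filter kept genes with at least 0.702 CPM, 10 counts at the median depth, in 6 libraries. The step between windows used 12 libraries, its difference between sets an interaction term, the next step 17 libraries and the mutant step 24. Standard errors come from the F statistics. DESeq2 1.42.0, RLE scaling, no filter, other blocks, single sets and leaving out each of the 12 wild-type libraries of the step were the alternatives. The fits were tested on simulated data. Only CR libraries are labelled as lines; where nothing says that libraries are separate collections, p-values measure only the spread between these samples, which may be technical.

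Genes were named by a rule: per direction, the 14 largest called changes with a mean of at least 10 CPM in the higher window and no overlap; the 4 smallest adjusted p-values of each of 36 lists; the hox, ecdysone, glycolysis and study transcript lists in full; and the 5 smallest adjusted p-values of each difference. The text takes a selection of these. elav, and other members that went against their list, are exceptions named after their values were seen. The libraries and lists were chosen with earlier results of these data known.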

Additional observations from a re-analysis of the deposited data

Results flagged for a closer look

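Of 282 groups of 6 libraries, 72 of summed lists and 210 of genes named here, 5 list sums and 25 gene groups had 1 library far from the other 5 by Dixon's criterion at 95%. Chance alone flags about 1 in 20 groups, and groups that share libraries or genes are not independent. Levels below are given as the library's CPM against the lowest and highest of the other 5.

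The first 8-12 h library of set A, which also lay nearest to the older window on the first principal component, was high for Tb (1.91 CPM against 0 to 0.486), Cpr65Eb (6.47 CPM against 1.22 to 2.93), TwdlF (156 CPM against 2.06 to 47.8), Cpr66Cb (5.48 CPM against 0.0825 to 1.33), Cda5 (99.0 CPM against 58.5 to 70.8) and ftz-f1 (96.1 CPM against 15.2 to 42.2). These 6 genes rise from this window to the next. It was also high for ImpE3 (2.51 CPM against 0.769 to 1.36), which was not called.

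The second 12-16 h library of set A was low for the summed neuronal list (8471 CPM against 10191 to 10694), dap (109 CPM against 134 to 148), Hex-A (94.2 CPM against 111 to 121) and CG18765 (5.33 CPM against 10.4 to 13.1). It was high for the summed tracheal list (9338 CPM against 7375 to 8104), Osi18 (398 CPM against 256 to 286), Tpi (119 CPM against 54.3 to 73.5), Col4a1 (4134 CPM against 2942 to 3224) and wgn (125 CPM against 67.2 to 83.7).

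The second 12-16 h library of set B was high for the summed lists of dorsal closure (6267 CPM against 5550.1 to 5795), ecdysone genes (10642 CPM against 7706 to 8710.2) and septate junctions (13802 CPM against 12456 to 12944), and for ImpE1 (2231 CPM against 1196 to 1579.7), ImpE2 (2461 CPM against 1380.2 to 1717), ImpL1 (1269 CPM against 909 to 1008) and fzr (100.2 CPM against 58.7 to 70.7).

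In set CR, the second 8-12 h library was low for gcm (50.3 CPM against 82.1 to 91.7) and high for br (98.7 CPM against 40.9 to 58.3), ImpL1 (314 CPM against 51.4 to 146) and Ldh (96.8 CPM against 41.5 to 57.0). The second 12-16 h library was high for sls (4528 CPM against 3442 to 3806) and sisA (1.17 CPM against 0 to 0.137), and the first 12-16 h library for Tb (72.9 CPM against 13.9 to 31.9).

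The step differed between the 3 sets for CG18765 (edgeR adjusted p of the interaction 0.00228), Cyp4e1 (0.00438), Jabba (0.0185) and Cyp6d2 (0.0371).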

How the results depend on the processing

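The 7262 called genes became 7233 (3747 higher, 3486 lower) with RLE scaling, 7362 (3816 higher, 3546 lower) with DESeq2, 7520 (3898 higher, 3622 lower) without a filter on low counts, 7123 (3665 higher, 3458 lower) without a block and 6360 (3392 higher, 2968 lower) against a fold of 1.2. Counted only over genes at the minimum level in all 12 libraries, a choice made after seeing the data, they were 6011 (2739 higher, 3272 lower), and the genes at least 2-fold higher became 1683 in place of 2671. The called genes were 4441 (2422 higher, 2019 lower) within set A, 5560 (3024 higher, 2536 lower) within set B and 5167 (2947 higher, 2220 lower) within set CR, where 2 libraries face 2. Leaving out each library in turn gave 7006 to 7259 called, 3608 to 3749 higher and 3389 to 3514 lower. With the library number within a set as a replicate block the count was 7304 (3707 higher, 3597 lower). Whether these numbers pair the samples was not given for sets A and B; the correlation of deviations of same-numbered libraries was 0.104 in A, 0.0779 in B and 0.110 in CR. The 4 genes that differed between sets became 75 with DESeq2, 457 without a filter, 9 with the replicate block and 2 to 6 when 1 library was left out, and the cause was not tested. Within single sets some steps ran against the pooled value: CG18765 2.28 and Jabba 2.65 in CR, Cyp4e1 -2.82 and Cyp6d2 -1.57 in B. The mutant minus wild-type step called 1 gene with DESeq2 and 1 without a filter, where 4554 genes fell in mutants; edgeR called 0 whichever library was left out. With 1 of these 12 wild-type libraries left out, 2893 to 3121 genes were higher and 2787 to 3157 lower in the next step. In the mutant step 3245 to 3820 were then higher and 2806 to 3866 lower. The balance of the mutant step turned without 3 of the wild-type CR libraries, and the cause was not tested. Depth limits the low genes: 9802 of the 17477 genes in the tables had enough reads to test.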

Other observations

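The locus of lncRNA:marge lies among genes of the Bearded family, and it was described after its values were seen. On 3L (dm6), lncRNA:marge spans 14976626 to 14977631, and the family members Ocho, Brd, Tom and BobA lie 585, 3427, 6319 and 30500 bases from it. Ocho went from a mean of 83.3 to 3.41 CPM, a log2 fold change of -4.63 ± 0.27 (edgeR, adjusted p 1.98e-08), and BobA from 15.6 to 0.399 CPM (-5.49 ± 0.66, adjusted p 1.04e-05). CG3349, 1988 bases away on the other side, went from 17.4 to 0.458 CPM (-5.34 ± 0.65, adjusted p 1.36e-05). Within 40 kb on either side there are 15 other annotated genes, of which 14 were tested, 9 fell and 5 rose. Of all tested genes 36% fell and 38.1% rose. The genes that rose included DCX-EMAP (5.22 ± 0.34) and Sytbeta, a synaptotagmin gene (2.90 ± 0.38). CG13465, among those that fell, went from a mean of 8.09 to 0.168 CPM. The means of BobA, CG3349 and CG13465 at 12-16 h and of DCX-EMAP at 8-12 h lay under the 0.702 CPM minimum of the filter. The direction of these genes goes with being tested. Which of these genes share regulation was not tested.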
